A study of Homo sapiens with 6 samples.

Results

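The antisense noncoding RNAs of NOMO-1 cells were the rows of the expression table whose symbol ended in -AS and a number, selected on their signal, which had to reach at least 1 in at least 2 of the 6 libraries. Of 502 rows so named, 318 met that level, out of 15059 rows in the table and 12734 that met the same level. The level was read without regard to group, but a member that is high in 1 group could pass through that group alone. NOMO-1 is a human acute myeloid leukaemia cell line. METTL16, an RNA N6-adenosine methyltransferase, was targeted in it with a guide RNA and, in a further group, overexpressed, and total RNA depleted of ribosomal RNA was sequenced in 3 groups of 2 libraries. METTL16 knockout cells carried the guide sgMETTL16 and an empty vector (EV). METTL16 rescue cells carried sgMETTL16 in cells that overexpressed METTL16 (OE-METTL16), and control cells carried the guide sgNS with EV. All groups thus held a vector and a guide delivered by virus, and all were kept in puromycin at 2 µg/ml for 1 to 2 weeks before harvest. The overexpression came before the knockout, so the rescue cells were a parallel group and not knockout cells treated later. The labels do not say whether the 2 libraries of a group came from separate cultures or whether clones were picked, so the p-values below measure only the spread between these libraries.

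Antisense RNAs are transcribed from the strand opposite a gene, often a protein-coding one, and take the name of that sense gene. Many start beside the promoter of the sense gene and run away from it, so that both RNAs come from 1 CpG-rich stretch of open chromatin, and others start inside the sense gene or beyond its end. A few act on their sense gene in cis, others work in trans or host small RNAs, and most have no known role. Nuclear turnover by the RNA exosome keeps many of them low. METTL16 itself binds structured RNA carrying a short sequence known from the U6 small nuclear RNA and from hairpins of the MAT2A messenger RNA.

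The signal is the RSEM abundance that the authors deposited, a value relative to transcript length and library size, and a difference below is one of log2(signal + 1). METTL16 averaged 5.94 ± 0.154 in knockout, 12.2 ± 0.123 in rescue and 9.76 ± 0.188 in control libraries (SD, n = 2 each), and MAT2A, the enzyme that makes S-adenosylmethionine, averaged 77.9, 136 and 136. The myeloid markers SPI1, CD33, LYZ, CSF1R, ITGAM and CD68 were all in the table, whereas MPO was not. SPI1 averaged 50.6, 43.1 and 38.0 in knockout, rescue and control libraries, CD33 35.6, 32.7 and 30.1, and ITGAM 4.81, 5.19 and 5.22, of which ITGAM was not called. Among markers of other cells, KRT8 and PECAM1 were in the table, and CD3E, MS4A1, HBB, EPCAM and COL1A1 were not. PECAM1 averaged 27.5, 16.3 and 13.3 in knockout, rescue and control libraries. It rose in knockout against control by 1.00 (limma adjusted p = 3.70e-07). KRT8 averaged 0.727 over the 6 libraries and did not meet the required level. LYZ averaged 84.5, 56.4 and 31.0 in knockout, rescue and control libraries, CSF1R averaged 2.75, 1.01 and 0.849, and CD68 averaged 63.0, 36.5 and 31.8, so that LYZ, CSF1R and CD68 were highest in knockout cells. The part of these markers in the results below was not tested. The summed signal ran between 597200 and 681900 per library. By the spacing of low values of short RNAs, a signal of 1 over 1000 nt stood for about 22.5 to 24.4 reads. In these bulk samples, fewer cells that make an RNA and less of that RNA per cell cannot be told apart.

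Most antisense RNAs were scarce. Their mean signal over the 6 libraries had a median of 2.09 and ran between 0.732 and 87.5, with 281 members at 1 or more, 50 at 5 or more, 16 at 10 or more and 3 at 20 or more. The median member averaged 2.05 in knockout, 2.08 in rescue and 2.01 in control libraries, where the median of all genes that met the same level stood at 10.4, 10.4 and 9.94. In 226 members the signal was at least 1 in every library. Another 7 reached 1 only in the 2 knockout libraries, 1 only in the 2 rescue libraries and 0 only in the 2 control libraries. Those 7, VIM-AS1 and USP12-AS1 among them, had to be higher in knockout cells to be members, and 4 of them were called as risen in knockout against control and 5 as fallen in rescue against knockout, which is read as no result. At the level that chose the members, the second-highest signals just inside were 1.0001 for LANCL1-AS1, 1.0113 for SLCO4A1-AS1, 1.0127 for FOXN3-AS1 and 1.0139 for CLIP1-AS1. Just outside were SRD5A3-AS1 at 0.997, SGMS1-AS1 at 0.995, UST-AS1 at 0.982 and DLG5-AS1 at 0.979.

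The sense gene stood in the table for 303 members. The antisense RNA was the more abundant of the pair in 41 of these in knockout, 43 in rescue and 42 in control cells, and the median ratio of antisense to sense signal was 0.157 in knockout, 0.1499 in rescue and 0.156 in control cells. The annotation GENCODE 29 held 286 members by symbol, of which 232 were typed as antisense, 27 as processed transcripts and 19 as long intergenic RNAs. The position against the sense gene was known for 273. Start sites lay within 1000 bases of each other on opposite strands, here called head to head, in 99 members whose exons also overlapped those of the sense gene and in 40 whose exons did not. Exons overlapped without a head-to-head start in 86, gene bodies overlapped with exons apart in 44, and 4 had no overlap. Exons of 210 of the 286 members overlapped some exon of the opposite strand, over a median of 10.5% of the member's exon bases. Libraries were made with a stranded kit per the labels, but the strand setting of the counting is not given in the sources used here, so over such bases reads of the 2 genes cannot be told apart.

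The start regions of 4 members described below are shown, taken from the 49 whose window overlaps that of the promoter of the sense gene. Whether a shared window bears on the changes was not tested. RefSeq's windows on GRCh38.p14 hold the 250 bases before and 50 after the antisense start, and capitals mark the bases that also lie in the same window of the sense gene, which runs the other way. They are RNASEH1-AS1 at chr2:3558136-3558435 (plus strand), TMCC1-AS1 at chr3:129893621-129893920 (plus strand), COX10-AS1 at chr17:14069409-14069708 (minus strand) and IL10RB-AS1 at chr21:33266211-33266510 (minus strand).
RNASEH1-AS1: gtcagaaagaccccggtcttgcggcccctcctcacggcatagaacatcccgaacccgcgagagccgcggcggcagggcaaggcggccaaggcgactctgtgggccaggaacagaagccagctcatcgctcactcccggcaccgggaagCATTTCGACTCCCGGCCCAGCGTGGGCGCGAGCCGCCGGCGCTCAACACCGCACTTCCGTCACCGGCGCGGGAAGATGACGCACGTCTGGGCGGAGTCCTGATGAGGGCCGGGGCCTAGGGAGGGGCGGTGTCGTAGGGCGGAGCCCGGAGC
TMCC1-AS1: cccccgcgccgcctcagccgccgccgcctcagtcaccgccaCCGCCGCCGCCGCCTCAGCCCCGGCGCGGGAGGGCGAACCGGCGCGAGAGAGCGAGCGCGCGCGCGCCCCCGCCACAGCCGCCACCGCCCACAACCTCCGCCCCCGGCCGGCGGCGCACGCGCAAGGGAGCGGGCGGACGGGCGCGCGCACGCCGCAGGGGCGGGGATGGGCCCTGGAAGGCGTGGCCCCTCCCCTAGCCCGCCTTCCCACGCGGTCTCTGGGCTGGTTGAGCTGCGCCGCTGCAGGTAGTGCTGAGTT
COX10-AS1: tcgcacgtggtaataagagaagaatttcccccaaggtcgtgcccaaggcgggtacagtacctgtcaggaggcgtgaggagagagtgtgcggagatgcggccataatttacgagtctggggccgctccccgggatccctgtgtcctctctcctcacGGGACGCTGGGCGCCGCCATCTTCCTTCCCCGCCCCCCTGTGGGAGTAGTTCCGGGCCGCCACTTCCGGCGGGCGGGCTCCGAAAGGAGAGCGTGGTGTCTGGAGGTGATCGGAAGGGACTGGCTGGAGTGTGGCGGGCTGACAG
IL10RB-AS1: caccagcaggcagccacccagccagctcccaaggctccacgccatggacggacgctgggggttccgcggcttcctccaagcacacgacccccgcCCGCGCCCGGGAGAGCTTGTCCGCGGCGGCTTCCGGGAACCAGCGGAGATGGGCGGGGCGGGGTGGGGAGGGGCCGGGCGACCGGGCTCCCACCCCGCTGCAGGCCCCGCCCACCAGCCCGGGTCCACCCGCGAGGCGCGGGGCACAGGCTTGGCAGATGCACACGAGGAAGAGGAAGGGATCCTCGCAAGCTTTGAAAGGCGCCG

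In these RefSeq windows the antisense and sense starts lie 53 bases apart for RNASEH1-AS1, 160 for TMCC1-AS1, 46 for COX10-AS1 and 107 for IL10RB-AS1. The windows hold 35, 49, 24 and 31 CpG dinucleotides in that order. Windows were found for 252 members, with a median of 20 CpG and 62.3% G or C, against 14 CpG and 58.3% in all 27305 windows of the table. On both strands, TATAAA was found in 7.14% of the members' windows against 11.9% of all windows, the E-box CACGTG in 9.13% against 7.43%, and the cyclic AMP response element TGACGTCA in 1.59% against 1.98%. Of the 4 windows shown, COX10-AS1 holds CACGTG near its upstream end, and none holds TATAAA or TGACGTCA. Such matches are descriptions of the letters and not binding sites.

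In knockout against control cells the antisense RNAs split evenly. By limma (two-sided, Benjamini-Hochberg adjusted p under 0.05 over all 12734 genes tested), 42 of the 318 rose and 43 fell, and the median difference was 0.00. Across all genes tested 26.2% rose and 13.5% fell (39.7% were called), with a median difference of 0.07, so that the members rose in a smaller share (13.2%) and fell in the same share (13.5%) as genes at large. Long intergenic RNAs named LINC and a number, the class most like them, counted 20 risen and 19 fallen of 111. The sense genes themselves counted 67 risen and 39 fallen of 282. The difference between these classes was not tested. With the libraries put on the same quantiles, 23 members rose and 70 fell and the genes at large split into 3146 risen and 3187 fallen, and with each library divided by its median the members counted 34 and 61 and the genes at large 3113 and 3164, against 3333 and 1723 as deposited. Without control library 2, 25 members rose, and without control library 1, 28 fell.

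The direction of the calls went with the level of the RNA. The risen members had a median mean signal of 1.56 and the fallen ones 4.52. Among the 50 members with a mean signal of 5 or more, 5 rose and 19 fell (38.0%), where 16.3% of the 8828 genes at that level fell. Among the 116 members between 2 and 5, 12 rose and 19 fell (16.4%, beside 8.86% of 2280 genes), and among the 152 under 2, 25 rose and 5 fell (3.29%, beside 5.29% of 1626 genes). At each of these levels the members rose in a smaller share than the genes at that level, 10.0% against 27.3%, 10.3% against 22.5% and 16.4% against 25.2% from the highest level to the lowest. These level classes were drawn after the values were seen, and the class under 2 holds all 7 members that reached the required level through knockout alone, so its rises are a description.

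**Figure D1:**
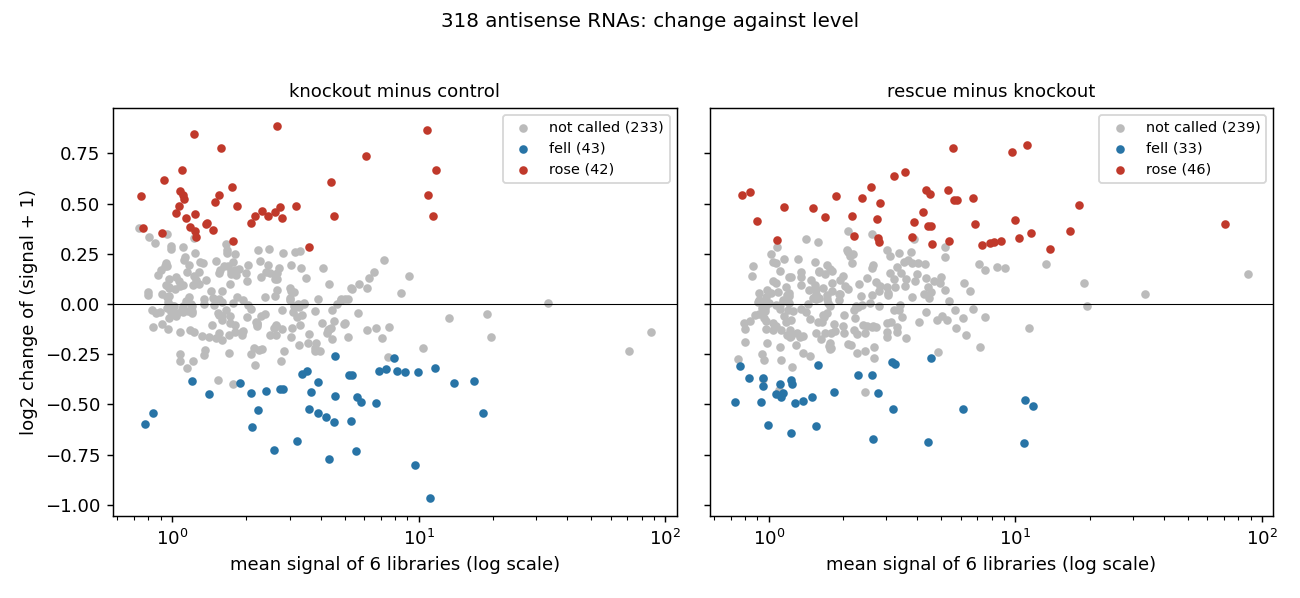
Each point is 1 of the 318 antisense RNAs, placed by its mean signal over the 6 libraries (log axis) and its difference in log2(signal + 1), knockout minus control on the left and rescue minus knockout on the right. Risen members (red, 42 and 46) and fallen members (blue, 43 and 33) are those with a limma adjusted p under 0.05, and the blue points of the left panel and the red points of the right panel reach further towards high signals.

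Among the fallen antisense RNAs, ZMIZ1-AS1 had the largest difference of the 318. It lies at chr10:78943328-79067895 on the minus strand, upstream of ZMIZ1, a transcriptional coregulator, and shares no base with it. Its signal was 6.52 and 6.995 in knockout libraries, 12.3 and 12.6 in rescue libraries, and 14.2 and 14.1 in control libraries. The knockout libraries lay far below all the others, and rescue lay below control without overlap. The difference between knockout and control was -0.96 (SE 0.0796, limma adjusted p = 1.02e-06), a ratio of means of 0.478, while ZMIZ1 itself averaged 18.8, 19.0 and 19.1 in knockout, rescue and control libraries and was not called (adjusted p = 0.855).

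GABPB1-AS1, which starts head to head with the gene for a subunit of the ETS-family factor GABP (chr15:50354959-50372202, plus strand), had 5.91 and 6.54 in knockout libraries, 11.3 and 11.1 in rescue libraries, and 12.2 and 10.95 in control libraries. Rescue and control overlapped, and both knockout values lay below them. The difference between knockout and control was -0.80 (SE 0.0881, limma adjusted p = 1.27e-05), and GABPB1 averaged 13.9, 15.2 and 15.3 in knockout, rescue and control libraries without a call (adjusted p = 0.228).

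RNASEH1-AS1, whose start region is printed above, had 3.48 and 3.52 in knockout libraries, 6.98 and 6.44 in rescue libraries, and 7.16 and 5.84 in control libraries. Both knockout values lay below the rest, while rescue and control overlapped. The difference between knockout and control was -0.73 (SE 0.104, limma adjusted p = 0.000101), whereas RNASEH1, the nuclease that removes RNA from RNA-DNA hybrids, averaged 22.3, 25.7 and 23.9 and was not called in that comparison (adjusted p = 0.282). TMCC1-AS1 had 2.08 and 1.99 in knockout, 3.83 and 3.63 in rescue and 4.22 and 3.53 in control libraries, and fell by 0.68 (SE 0.105, limma adjusted p = 0.000211). It was less abundant than TMCC1, a membrane protein of the endoplasmic reticulum, in knockout cells (ratio of 0.678) and more abundant in rescue (1.28) and control cells (1.49). COX10-AS1, opposite the gene for a heme A synthesis enzyme, had 3.45 and 4.09 in knockout, 5.54 and 6.63 in rescue and 5.90 and 6.35 in control libraries, and fell by 0.58 (SE 0.108, limma adjusted p = 0.000814). COX10 and TMCC1 were not called.

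Other fallen members with the largest differences were SGO1-AS1 (-0.77), SBF2-AS1 (-0.73), SLC16A1-AS1 (-0.59) and NNT-AS1 (-0.56), with limma adjusted p between 0.000264 and 0.000965. SGO1 encodes the shugoshin that protects centromeric cohesion, and NNT the mitochondrial transhydrogenase. SGO1-AS1 averaged 2.82 ± 0.420 in knockout, 4.67 ± 0.730 in rescue and 5.52 ± 0.865 in control libraries, and SBF2-AS1 averaged 1.59 ± 0.0207, 2.89 ± 0.433 and 3.30 ± 0.476 (SD, n = 2 each). For SGO1-AS1 and SBF2-AS1 both knockout libraries lay below all others. THAP9-AS1, a member of high level at 13.9 ± 0.664 in knockout, 19.96 ± 1.05 in rescue and 20.7 ± 2.49 in control libraries, fell by 0.54 (limma adjusted p = 0.000248). It exceeded its sense gene, the transposase-derived THAP9, by 8.04 times in knockout, 11.1 times in rescue and 12.9 times in control cells, and THAP9 was not called. Each of these falls passed with any 1 library left out.

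Of the fallen members with the largest differences, 3 lost their call when a single library was left out. DARS-AS1 had 2.00 and 0.949 in knockout libraries, 1.90 and 2.33 in rescue libraries, and 2.95 and 2.47 in control libraries, and its adjusted p of 0.00893 (limma) became 0.125 without knockout library 2, 0.144 without control library 1 and 0.0728 without control library 2. AZIN1-AS1 averaged 0.340 in knockout, 0.969 in rescue and 1.02 in control libraries, and its adjusted p of 0.00344 became 0.0641 without control library 2, at a difference of -0.57 there against -0.60 with all libraries. AZIN1-AS1 met the required level only through rescue and control libraries, so its fall is a description. IDH1-AS1 is described with its sense gene further on. The knockout and rescue libraries of DARS-AS1 overlapped.

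Among the risen antisense RNAs, CIRBP-AS1 had the largest difference. It lies at chr19:1267814-1270241 on the minus strand, opposite the gene for the cold-inducible RNA-binding protein. Its signal was 3.99 and 4.10 in knockout libraries, 1.90 and 2.45 in rescue libraries, and 1.84 and 1.63 in control libraries. Both knockout values stood well above all the others, and rescue lay above control without overlap. The difference between knockout and control was 0.89 (SE 0.112, limma adjusted p = 4.07e-05), a ratio of means of 2.33. CIRBP averaged 40.1, 37.6 and 34.7 in knockout, rescue and control libraries and was not called (0.20, adjusted p = 0.0583). Only 0.402% of the exon bases of CIRBP-AS1 lie over an exon of CIRBP.

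MBNL1-AS1 (chr3:152262616-152269555, minus strand) runs head to head with the gene for the splicing regulator muscleblind-like 1. It had 14.9 and 15.8 in knockout libraries, 8.68 and 9.62 in rescue libraries, and 8.46 and 7.51 in control libraries. Knockout lay above the rest by more than the spread of any group. The difference between knockout and control was 0.87 (SE 0.0885, limma adjusted p = 6.98e-06), and MBNL1 rose as well, by 0.35 (adjusted p = 0.000970), with averages of 154, 134 and 121 in knockout, rescue and control libraries.

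MKNK1-AS1, opposite the kinase gene MKNK1, had 2.26 and 1.83 in knockout libraries, 0.900 and 1.00 in rescue libraries, and 0.595 and 0.787 in control libraries, a difference between knockout and control of 0.85 (SE 0.117, limma adjusted p = 8.42e-05). The groups did not overlap. Outside knockout at most 1 library reached 1, so MKNK1-AS1 was a member through its knockout libraries, and its rise is a description. VAV3-AS1, opposite the gene for a guanine nucleotide exchange factor, had 2.15 and 2.31 in knockout, 1.67 and 1.56 in rescue and 0.953 and 0.825 in control libraries, a difference of 0.78 (SE 0.107, limma adjusted p = 8.23e-05). Its rescue values lay between the other groups without overlap, and VAV3 averaged 19.9, 20.6 and 20.3 without a call. MMP24-AS1 rose by 0.74 (adjusted p = 0.000237) and PTOV1-AS2 by 0.54 (adjusted p = 0.000840), with averages of 8.30 and 13.9 in knockout, 5.44 and 9.72 in rescue and 4.58 and 9.20 in control libraries. The rises of VAV3-AS1, MMP24-AS1 and PTOV1-AS2 passed with any 1 library left out. MKNK1-AS1 kept its call as well, but the required level favoured its rise.

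MEIS1-AS2 lies at chr2:66439088-66441836, head to head with MEIS1, the homeobox gene that works with HOXA9 in leukaemia with KMT2A fusions. Its signal was 14.7 and 16.1 in knockout libraries, 10.1 and 10.9 in rescue libraries, and 10.2 and 8.53 in control libraries. Knockout lay above the rest, and rescue and control overlapped. It rose by 0.67 (SE 0.0932, limma adjusted p = 9.28e-05), and MEIS1 rose by 0.66 (SE 0.0611, adjusted p = 2.77e-06), so that the ratio of antisense to sense was 0.240 in knockout, 0.226 in rescue and 0.234 in control cells. Of the exon bases of MEIS1-AS2, 42.7% lie over MEIS1 exons.

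VIM-AS1, head to head with the gene for the intermediate filament protein vimentin, had 1.42 and 1.46 in knockout libraries, 0.985 and 0.526 in rescue libraries, and 0.635 and 0.543 in control libraries. It reached 1, and so became a member, only through the knockout libraries. It rose by 0.62 (SE 0.130, limma adjusted p = 0.00196) beside VIM, which rose by 0.82 (adjusted p = 2.41e-06), and 32.2% of its exon bases lie over VIM exons. IL10RB-AS1, whose start region is printed above and whose sense gene encodes a receptor chain for interleukin 10, had 6.17 and 6.02 in knockout, 4.03 and 2.86 in rescue and 3.18 and 4.18 in control libraries. It rose by 0.61 (limma adjusted p = 0.00244), but without control library 1 the adjusted p was 0.0596, and on shared quantiles it was 0.0510. IL10RB rose by 0.46 (adjusted p = 0.000106).

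Further rises lost their call when a single library was left out. TXNDC12-AS1 rose by 0.67 (limma adjusted p = 0.0173), with 1.25 and 2.02 in knockout, 0.614 and 1.33 in rescue and 0.338 and 1.02 in control libraries, and its adjusted p was 0.299 without control library 1. GTF3C2-AS1 rose by 0.58 (adjusted p = 0.00273, and 0.0527 without control library 1) and USP12-AS1, which reached 1 only in the knockout libraries, by 0.56 (adjusted p = 0.00340, and 0.0634 without control library 2). The rescue libraries of TXNDC12-AS1 overlapped both other groups.

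**Figure D2:**
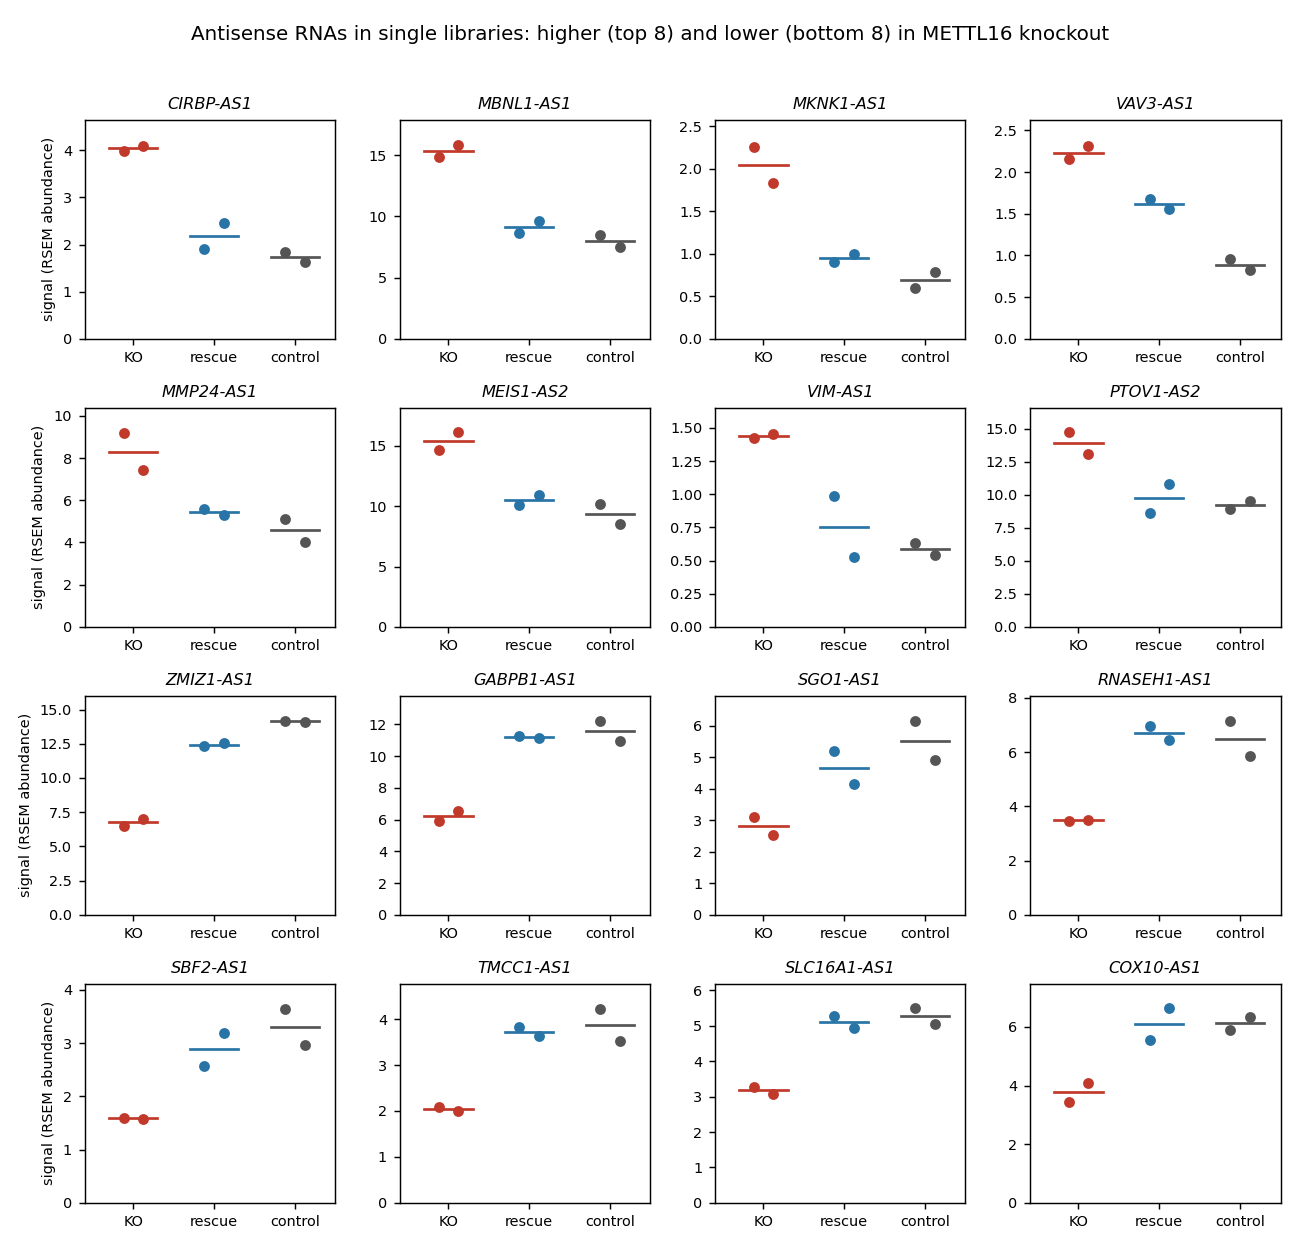
Signal of 16 antisense RNAs in each library (points) with the group mean (bar), in knockout, rescue and control cells, on axes that start at 0. The top 8 are members that rose in knockout against control, such as CIRBP-AS1 (3.99 and 4.10 in knockout, 1.84 and 1.63 in control), and the bottom 8 are members that fell, such as ZMIZ1-AS1 (6.52 and 6.995 in knockout, 14.2 and 14.1 in control).

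In rescue against knockout cells, which share the knockout libraries with the comparison above, 46 members rose (14.5%) and 33 fell (10.4%) by limma, where 15.6% of all genes tested rose and 15.9% fell (31.4% were called). The median difference was 0.02, beside -0.01 over all genes. LINC RNAs counted 20 risen and 17 fallen of 111, and the sense genes 48 and 38 of 282. Here too level and direction went together: of the 50 members with a mean signal of 5 or more 20 rose and 4 fell, and of the 152 under 2, 8 rose and 20 fell. At 5 or more these were 40% and 8%, beside 19.35% and 16.1% of 8828 genes. Between 2 and 5, 15.5% of members rose and 7.76% fell, beside 8.20% and 14.4% of 2280 genes. Under 2 the members' 5.26% and 13.2% were near the 5.35% and 16.7% of 1626 genes. That class holds all 7 members that reached the required level through knockout alone. Of those 7, 5 are among its 20 falls, so the falls under 2 are a description. Without knockout library 2, 28 members rose, without rescue library 2, 30 rose, and on shared quantiles 61 rose and 21 fell.

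The differences between rescue and knockout of the antisense RNAs described above were 0.79 for ZMIZ1-AS1 (SE 0.0796, limma adjusted p = 1.13e-05), 0.76 for GABPB1-AS1 (adjusted p = 3.80e-05) and 0.78 for RNASEH1-AS1 (adjusted p = 0.000115). TMCC1-AS1 differed by 0.64, SBF2-AS1 by 0.58, SGO1-AS1 and COX10-AS1 by 0.57 each, SLC16A1-AS1 by 0.55, THAP9-AS1 by 0.49 and NNT-AS1 by 0.46, with limma adjusted p of at most 0.00510. All 10 were called as risen in rescue. In the other direction, MBNL1-AS1 fell by 0.69 (adjusted p = 8.49e-05), CIRBP-AS1 by 0.67 (adjusted p = 0.000579) and MKNK1-AS1 by 0.64 (adjusted p = 0.00109). MMP24-AS1 fell by 0.52, MEIS1-AS2 by 0.51 and PTOV1-AS2 by 0.48, all with limma adjusted p of at most 0.00391. MKNK1-AS1 was a member through its knockout libraries, so its fall is a description.

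Several calls of rescue against knockout were lost when 1 library was left out. VIM-AS1 fell by 0.49 (limma adjusted p = 0.0111) and lost its call without rescue library 2, at a difference of -0.30. It was a member only through its knockout libraries, so its fall is a description. VAV3-AS1 fell by 0.31 (adjusted p = 0.0421, and 0.0984 to 0.213 with either rescue library or either knockout library left out, at differences between -0.34 and -0.27). Among members with no call in knockout against control, TPRG1-AS1 fell by 0.60 (adjusted p = 0.0185, and 0.238 without knockout library 1, at a difference of -0.26) and EFCAB14-AS1 by 0.50 (adjusted p = 0.00679, and 0.0698 without rescue library 2). Apart from these, DLEU7-AS1 fell by 0.52 in rescue against knockout (limma adjusted p = 0.00178) and kept its call with any 1 library left out. It had 4.16 and 4.24 in knockout, 2.44 and 2.82 in rescue and 2.81 and 2.603 in control libraries. Its knockout values stood above both other groups.

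In rescue against control cells 0 of the 318 members passed, by limma, where 0.283% of all genes tested did (0.228% risen and 0.055% fallen). At an unadjusted p under 0.05 there were 25 members (7.86%) beside 11.5% of all genes. The 2 groups fitted alone gave 6 risen and 1 fallen of the 318 members, beside 217 and 71 of the 12734 genes tested. The lowest adjusted p was that of SPG20-AS1 (0.0782, looked up after the values were seen). Next came DIAPH3-AS2, with a difference of 0.59 (limma adjusted p = 0.0851), and VAV3-AS1, with 0.47 (adjusted p = 0.0928). DIAPH3-AS2 had 3.52 and 2.51 in knockout, 3.51 and 3.10 in rescue and 1.62 and 2.11 in control libraries, so that knockout and rescue overlapped and control lay below both. A p that misses the threshold does not show that rescue and control cells were alike.

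Antisense RNA and sense gene were set side by side in the 288 pairs with both tested. In knockout against control, both rose in 12 pairs and both fell in 11, the antisense RNA rose and the sense gene fell in 5, and the antisense RNA fell and the sense gene rose in 4. The antisense RNA alone was called in 43 pairs (20 risen, 23 fallen), the sense gene alone in 76 (53 risen, 23 fallen), and neither in 137. In rescue against knockout, both rose in 9 and both fell in 6, with 4 and 3 pairs in opposite directions. Across the 288 pairs the 2 differences had a Pearson's r of 0.17 and a Spearman's rho of 0.14 in knockout against control, as a description across pairs that share libraries. Of the members described above, MBNL1-AS1, MEIS1-AS2 and IL10RB-AS1 were among the pairs that both rose, as was VIM-AS1, whose direction the required level fixed. SLC16A1-AS1 fell with SLC16A1, the lactate transporter, which had 37.2 and 35.6 in knockout, 51.2 and 52.5 in rescue and 50.2 and 46.5 in control libraries (-0.40, limma adjusted p = 0.000225).

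**Figure D3:**
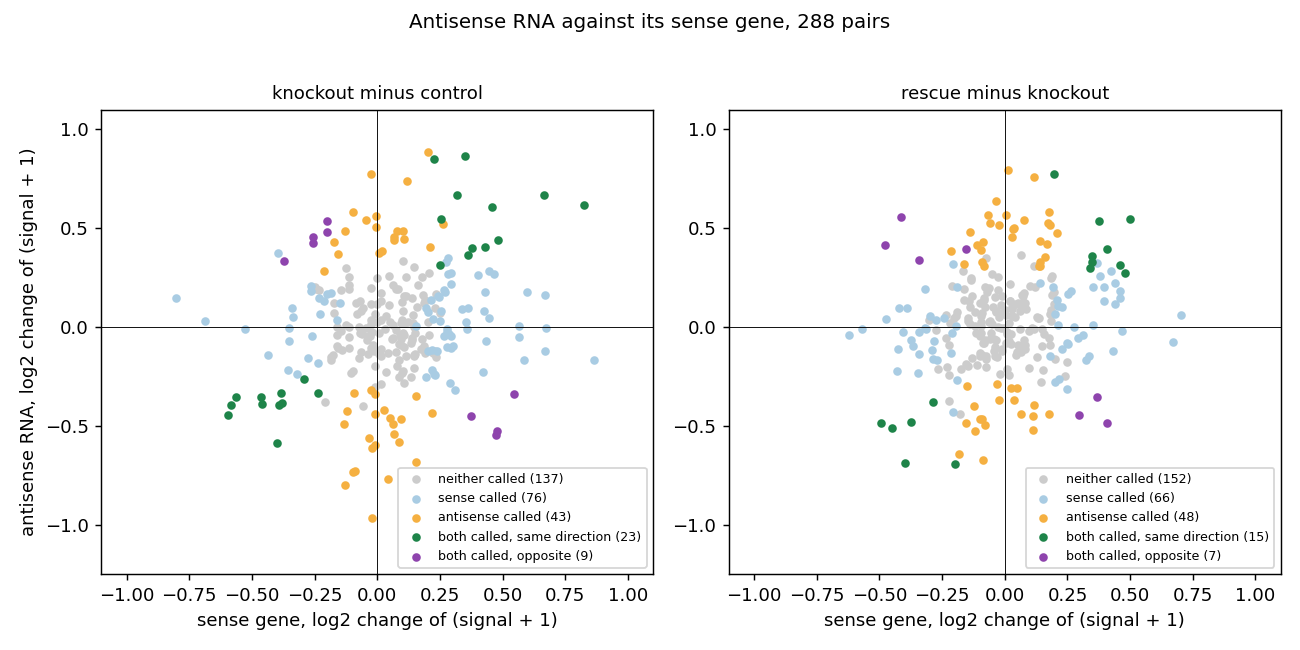
Difference in log2(signal + 1) of each antisense RNA (vertical) against that of its sense gene (horizontal) in 288 pairs, for knockout minus control (left) and rescue minus knockout (right). Colours give the limma calls of both, with 137 and 152 pairs uncalled, and the called pairs lie along both axes as well as on the diagonal. Most sense genes were uncalled whether or not their antisense RNA was called.

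The 9 opposite pairs of knockout against control were uneven in strength. TMEM9B-AS1 (chr11:8964675-8977527, plus strand), head to head with a gene for a lysosomal membrane protein, had 1.75 and 1.47 in knockout libraries, 2.26 and 2.34 in rescue libraries, and 2.78 and 2.73 in control libraries. It fell by 0.53 (SE 0.105, limma adjusted p = 0.00139). TMEM9B had 13.4 and 13.6 in knockout, 10.3 and 10.6 in rescue and 9.58 and 9.28 in control libraries and rose by 0.48 (SE 0.0778, adjusted p = 0.000302). The groups did not overlap for either RNA, and in that comparison both calls passed with any 1 library left out. In rescue against knockout the pair moved by 0.34 and -0.34, with adjusted p of 0.0241 and 0.00449, of which TMEM9B-AS1 lost its call without knockout library 2 (0.223), rescue library 1 (0.0800) or rescue library 2 (0.122) and TMEM9B without rescue library 1 (0.0564).

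EMC3-AS1 (chr3:9986893-10006990, plus strand) starts head to head with the gene for a subunit of the complex that inserts membrane proteins into the endoplasmic reticulum. It had 7.76 and 8.43 in knockout libraries, 11.2 and 11.1 in rescue libraries, and 11.3 and 9.71 in control libraries, and fell by 0.34 (SE 0.0902, limma adjusted p = 0.00903), with an adjusted p of 0.0844 without knockout library 1. EMC3 had 22.8 and 24.5 in knockout, 17.0 and 16.4 in rescue and 16.4 and 15.4 in control libraries, and rose by 0.55 (adjusted p = 6.75e-05). The ratio of antisense to sense was 0.342 in knockout, 0.666 in rescue and 0.662 in control cells. In rescue against knockout EMC3-AS1 rose by 0.42 (adjusted p = 0.00328) and EMC3 fell by 0.48 (adjusted p = 0.000326).

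IDH1-AS1 starts head to head with the gene for the cytosolic isocitrate dehydrogenase and had 0.294 and 0.503 in knockout libraries, 0.749 and 1.41 in rescue libraries, and 0.933 and 1.14 in control libraries. It fell by 0.54 (limma adjusted p = 0.00972, and 0.0632 and 0.138 without control library 1 and 2, at differences of -0.62 and -0.47), while IDH1, with averages of 145, 108 and 104 in knockout, rescue and control libraries, rose by 0.47 (adjusted p = 1.99e-05). The antisense RNA was near 1 or below in all groups, at a ratio to IDH1 of 0.00276 in knockout and 0.00995 in control cells. IDH1-AS1 met the required level only through rescue and control libraries. The level thus favoured a fall in knockout, and the direction of IDH1-AS1 is a description. ARF4-AS1, beside the small GTPase gene ARF4, fell by 0.45 (adjusted p = 0.0442, and 0.477 without control library 2).

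The 5 antisense RNAs that rose beside a fallen sense gene were IPO9-AS1 (0.43, limma adjusted p = 0.0112), OSGEPL1-AS1 (0.34, adjusted p = 0.0409), TONSL-AS1 (0.46, adjusted p = 0.00595), DIAPH3-AS2 (0.48, adjusted p = 0.0103) and GLTSCR2-AS1 (0.54, adjusted p = 0.0264). Each lost its call when a single library was left out, with adjusted p reaching 0.0975 for IPO9-AS1 and 0.199 for OSGEPL1-AS1 without control library 2, 0.0581 for TONSL-AS1 and 0.271 for GLTSCR2-AS1 without the same library, and 0.133 for DIAPH3-AS2 without knockout library 1. On shared quantiles the adjusted p was 0.176 for OSGEPL1-AS1, 0.0862 for DIAPH3-AS2, 0.219 for GLTSCR2-AS1 and 0.0541 for IPO9-AS1. The falls of 3 of the sense genes were lost without knockout library 2 as well, with adjusted p of 0.345 for TONSL, 0.263 for DIAPH3 and 0.180 for GLTSCR2. IPO9 is an importin, and it averaged 23.3, 28.8 and 28.1 in knockout, rescue and control libraries (-0.26, adjusted p = 0.00979, and 0.0538 without knockout library 2). Of the exon bases of IPO9-AS1, 48.0% lie over exons of the opposite strand, beside 33.6% of OSGEPL1-AS1 and none of DIAPH3-AS2.

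**Figure D4:**
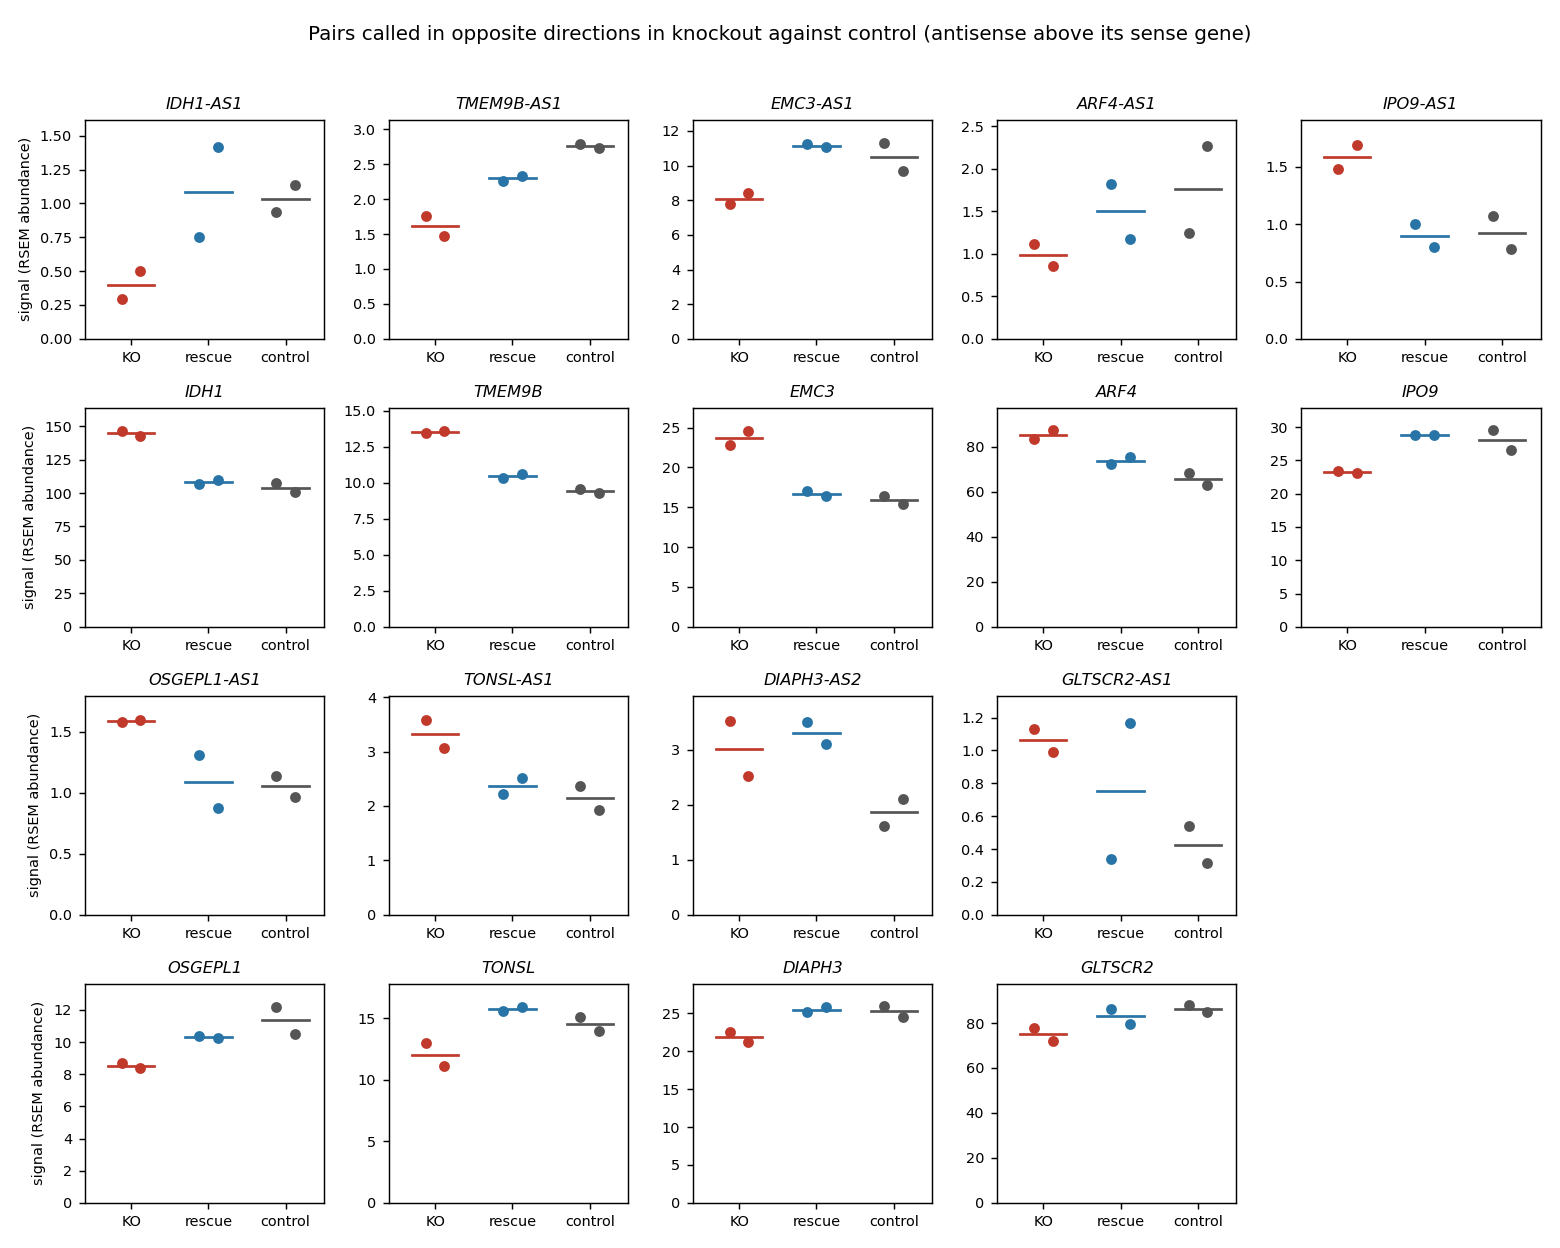
Signal per library (points) with the group mean (bar) of the 9 antisense RNAs called in the opposite direction to their sense gene in knockout against control, each above its sense gene, in knockout, rescue and control cells. The first 4 antisense RNAs (IDH1-AS1, TMEM9B-AS1, EMC3-AS1, ARF4-AS1) have lower means in knockout than in control cells and the other 5 have higher means, and the sense genes run the other way.

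By position, the head-to-head members with overlapping exons counted 17 risen and 20 fallen of 99 in knockout against control, and those with exons apart 3 and 6 of 40. Members with overlapping exons elsewhere counted 9 and 7 of 86, and members whose gene body overlaps that of the sense gene with exons apart counted 7 risen and 1 fallen of 44. The median differences of these 4 classes were -0.01, -0.04, 0.01 and 0.06. In rescue against knockout the same classes counted 20 and 11, 7 and 3, 7 and 8, and 2 and 5. Among the 49 members whose start window overlaps that of the sense gene are RNASEH1-AS1, TMCC1-AS1, COX10-AS1 and IL10RB-AS1. In knockout against control 13.2% of all members rose and 13.5% fell, beside 26.2% and 13.5% of all genes tested. In rescue against knockout these shares were 14.5% and 10.4%, beside 15.6% and 15.9%. The position classes were not matched for level, which went with direction, and the differences between position classes were not tested.

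**Figure D5:**
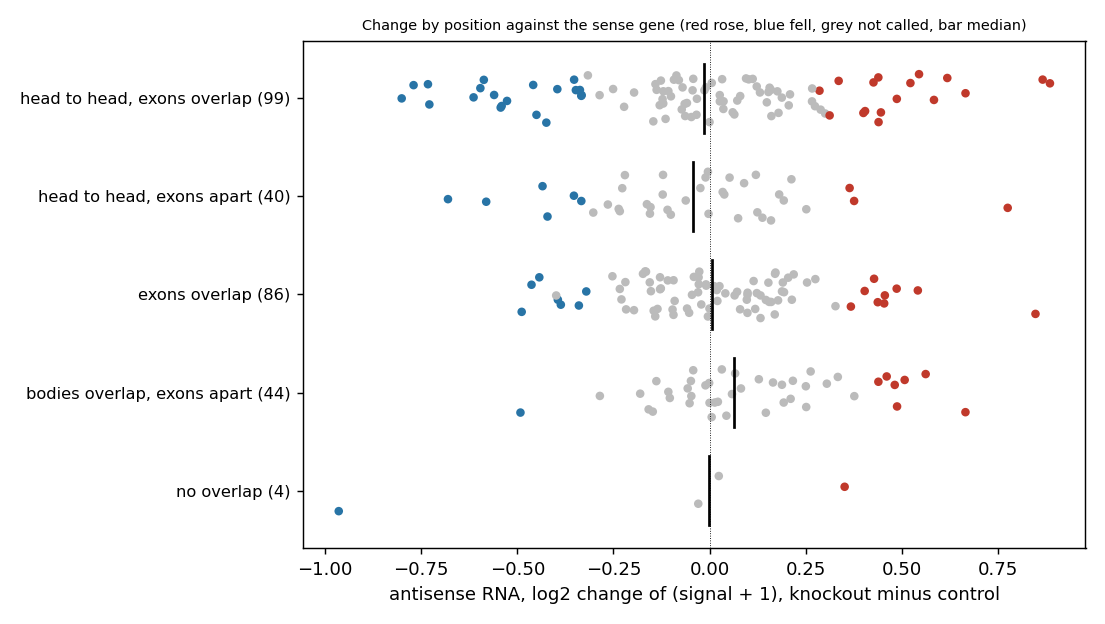
Difference in log2(signal + 1), knockout minus control, of the 273 antisense RNAs with a known position, in rows by position against the sense gene with the number of members in brackets. Red points rose and blue points fell by limma, grey points were not called, and the black bar is the median, which lies between -0.04 and 0.06 in every class.

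Of the 6 antisense RNAs of highest level, THAP9-AS1 was called in knockout against control and the other 5 were not called on the values as deposited. LRRC75A-AS1, which hosts small nucleolar RNAs, was the most abundant, with 83.4 and 80.0 in knockout libraries, 89.996 and 91.3 in rescue libraries, and 93.0 and 87.4 in control libraries. Knockout lay below the rest, and the difference of -0.14 was not called (limma adjusted p = 0.0609), but it was called as fallen on shared quantiles (0.00131), with libraries divided by their medians (0.00327) and without control library 2 (0.0210). LRRC75A fell by 0.44 (adjusted p = 0.000964). FGD5-AS1 had 32.1 and 34.2 in knockout, 33.7 and 34.97 in rescue and 33.9 and 32.2 in control libraries, with all groups overlapping. PSMA3-AS1 averaged 18.2, 19.7 and 19.0, and RBM5-AS1 18.8, 18.7 and 21.2, without a call, beside RBM5, a splicing regulator, which rose by 0.58 (adjusted p = 9.30e-06). RBM5-AS1 was called as fallen on shared quantiles (limma adjusted p = 0.0172), with libraries divided by their medians (0.0131) and without control library 2 (0.0160), and PSMA3-AS1 with libraries divided by their medians (0.0311).

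FOXP4-AS1 differed between the control libraries more than between groups, with 62.2 and 58.6 in knockout, 77.7 and 81.9 in rescue and 86.8 and 58.5 in control libraries. It was not called in knockout against control (-0.24, limma adjusted p = 0.135), but without control library 2, the lower one, its adjusted p was 0.00207, and it was also called without knockout library 1 (0.00810), rescue library 1 (0.00980) or rescue library 2 (0.00994). It rose in rescue against knockout by 0.40 (adjusted p = 0.0223). On shared quantiles that adjusted p was 0.0755. Its sense gene FOXP4, a forkhead factor, fell there by 0.16 (adjusted p = 0.0434, and 0.0836 to 0.271 with either rescue library or either knockout library left out).

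In knockout against control HOXA-AS2 rose by 0.54 (limma adjusted p = 0.00423, and 0.0618 without knockout library 1 and 0.0709 without control library 2), while HOXA-AS3 was not called (0.24, adjusted p = 0.103). Both come from the HOXA cluster that is active in such leukaemias. HOXA-AS2 had 2.68 and 1.87 in knockout, 1.19 and 1.08 in rescue and 1.36 and 1.11 in control libraries, so that knockout lay above the rest. NUTM2B-AS1 fell by 0.49 (adjusted p = 0.00142) and MCM3AP-AS1 by 0.46 (adjusted p = 0.00339), with averages of 5.01 and 4.22 in knockout, 7.67 and 6.48 in rescue and 7.46 and 6.20 in control libraries. EPB41L4A-AS1, another host of a small nucleolar RNA, fell by 0.32 (adjusted p = 0.0111, and 0.147 without knockout library 1), NUTM2A-AS1 by 0.34 (adjusted p = 0.0132, and 0.0713 without control library 1) and MAPKAPK5-AS1 by 0.33 (adjusted p = 0.0315, and 0.213 without control library 1). PCBP1-AS1, TMPO-AS1, SLC25A25-AS1, PRKCQ-AS1, KMT2E-AS1 and JARID2-AS1 were not called in that comparison, with differences between -0.23 and 0.07. Of these, PCBP1-AS1, SLC25A25-AS1 and PRKCQ-AS1 were called as fallen on shared quantiles (limma adjusted p of 0.0260, 0.0125 and 0.00965) and with libraries divided by their medians (0.0466, 0.0156 and 0.0106), and JARID2-AS1 as risen without control library 1 (0.0365).

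The sequence TACAGAGAA, the METTL16 sequence of U6 and MAT2A with T for U, was searched on the transcript strand of the GENCODE 29 transcripts. It was found in 9 of 286 members (3.15%), in 18 of 534 other noncoding genes of similar length (3.37%) and in 578 of 10756 protein-coding genes (5.37%), whose transcripts are longer (median longest transcript of 3591 nt against 1704 nt for the members). Of the 9, AZIN1-AS1 fell in knockout against control cells and the other 8 were not called. The 277 members without the sequence counted 38 risen and 38 fallen, and 39.7% of all genes tested were called. AZIN1-AS1 met the required level only through rescue and control libraries, so its fall is a description. The windows of 7 of the 9 are shown because METTL16's sequence was present in them, and those of AZIN1-AS1 and OTUD6B-AS1 are not shown, with the motif in capitals and up to 10 bases on each side. TTN-AS1 carries it at base 6 of a transcript, and PCBP1-AS1 at base 1731.
PCBP1-AS1: cacatacacaTACAGAGAAttttgtctca
THUMPD3-AS1: actactgcttTACAGAGAAttggatctga
C9orf41-AS1: tagctgtgacTACAGAGAAttaaacttat
TTN-AS1: attgtTACAGAGAAaaagcggggc
TMC3-AS1: gatgacaagtTACAGAGAAacatcttgaa
SH3BP5-AS1: agttacaaccTACAGAGAAattaacatct
EDRF1-AS1: ttgctcacttTACAGAGAAagaaagaaaa

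PCBP1-AS1 had 3.56 and 2.95 in knockout libraries, 3.42 and 3.62 in rescue libraries, and 4.30 and 3.46 in control libraries. All 3 groups overlapped, and the difference between knockout and control was -0.20 (limma adjusted p = 0.189, and 0.0260 on shared quantiles). A match to these letters is no evidence of binding, and the hairpin that METTL16 needs was not assessed.

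Genes of the nuclear exosome and its adaptors, which turn over antisense and promoter-upstream RNAs, were measured in 26 cases. In knockout against control 3 rose and 3 fell by limma, near the shares of all genes in the falls (11.5% against 13.5%) and below them in the rises (11.5% against 26.2%). EXOSC2, a cap subunit of the exosome ring, had 16.6 and 16.1 in knockout libraries, 31.5 and 29.2 in rescue libraries, and 30.1 and 28.0 in control libraries. Knockout lay far below both other groups, which overlapped, and the difference was -0.79 (SE 0.0704, limma adjusted p = 1.95e-06). NCBP2, the cap-binding subunit of the nuclear cap-binding complex, had 26.7 and 25.7 in knockout, 35.7 and 37.1 in rescue and 34.2 and 32.6 in control libraries, and fell by 0.34 (adjusted p = 0.000970). EXOSC5, a ring subunit, fell by 0.23 (adjusted p = 0.0175, and 0.169 without knockout library 2), and DIS3, the catalytic ribonuclease, rose by 0.27 (adjusted p = 0.00761, and 0.0518 without knockout library 1). The other risen genes, EXOSC10 and ZC3H18, also lost their call without that library (0.0954 and 0.280), which left 0 of the 3 rises.

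In rescue against knockout 7 of the 26 rose (26.9%, against 15.6% of all genes) and 0 fell by limma (11 had an unadjusted p under 0.05). EXOSC2 rose by 0.85 (limma adjusted p = 1.68e-06), NCBP2 by 0.46 (adjusted p = 0.000157) and EXOSC5 by 0.36 (adjusted p = 0.00152). All 3 passed with any 1 library left out in that comparison. The other 4, EXOSC7, EXOSC9, NCBP1 and ZCCHC7, lost their call without knockout library 2 (0.148, 0.144, 0.0602 and 0.111), which left 3 of the 7 rises. Whether the levels of these genes bear on the antisense RNAs was not tested.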

How the data were processed

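Total RNA depleted of ribosomal RNA was sequenced in 6 libraries of NOMO-1 cells in 3 groups of 2, with a TruSeq stranded kit per the labels' protocols. The submitters' processing notes name STAR, RSEM and the GRCh38 build, with no versions. The authors deposited 1 abundance value per gene and library, a normalized signal whose kind (TPM or FPKM) no header states, and it was used as deposited. Groups came from the labels. Every table column was matched to a sample.

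Depth is not stated. It was estimated from 80 to 96 short genes (up to 400 nt) per library, of whose low values 72.5% to 78.8% lay within 0.15 of whole multiples of 1 step, which was chosen for the best match. At a signal of 1 over 1000 nt this gives the counting error of about 23 reads. TMLHE-AS1, 1 member, has values identical to another row.

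The 12734 genes that reached 1 in 2 or more libraries entered limma 3.58.1 in R 4.3.3, with trend, on log2(signal + 1), 1 fit over the 6 libraries (residual degrees of freedom 3, prior 11.02), two-sided with Benjamini-Hochberg adjustment at 0.05. The script was tested on simulated data. Adding 1 shrinks the differences of low signals. Python 3.11.15 and pandas 2.3.3 made the counts and matplotlib 3.10.9 the figures.

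The members, gene lists and tests were chosen with earlier results of these data known. Named members were up to 12 risen and 12 fallen per comparison with the largest differences, the 6 of highest level, up to 12 called opposite to their sense gene, those at the edge of the level filter and a list of known antisense RNAs, with up to 3 exosome genes per comparison. Promoter windows came from RefSeq on GRCh38.p14 and transcripts and positions from GENCODE 29. The kinds of alternative were the pseudocount, the filter, the scaling, the trend, the block, the groups in the fit and single libraries left out. Some markers of other cell types are not reported here.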

Additional observations from a re-analysis of the deposited data

How the results depend on the processing

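In 2577 comparisons of a named result with an alternative, no result called in either fit reversed direction. Of these comparisons 2334 kept their side of the threshold, 202 lost a call and 41 gained one. A change of sign without a call in either fit was counted as kept. With a mean signal of at least 5 required, 50 members were tested, of which 5 rose and 23 fell in knockout against control, 22 rose and 4 fell in rescue against knockout, and 2 rose in rescue against control. Fewer members were tested there. Of the 8828 genes at that level, 2655 rose and 1584 fell, 1925 and 1630, and 194 and 31 in the same order of comparisons. On shared quantiles 23 rose and 70 fell in knockout against control, and 21 fell in rescue against knockout. The cause was not tested. The 2 groups alone gave 6 risen and 1 fallen in rescue against control, beside 217 and 71 of the 12734 genes tested. With 1 library left out, the lone library of an arm being assumed to vary like the others, 25 to 47 rose and 28 to 48 fell in knockout against control, 28 to 50 rose and 24 to 28 fell in rescue against knockout, and 0 to 6 rose and 0 to 4 fell in rescue against control.

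The labels do not say whether the replicate numbers pair the libraries. The deviations of same-numbered libraries correlated by -0.01 for knockout and control, 0.10 for rescue and knockout and -0.05 for rescue and control. With 1 pair of libraries per number, these values cannot settle whether the libraries were paired. With the replicate number as a block, knockout against control gave 50 risen and 51 fallen, rescue against knockout gave 53 and 36, and rescue against control gave 8 and 3, where the unblocked fit called 0. Over all 12734 genes tested the block gave 3600 and 1875, 2214 and 2263, and 299 and 83 in the same order, where the unblocked fit called 29 and 7 in rescue against control. Depth limits the members near a signal of 1, where few reads lie behind a value in short transcripts. Leave-one-out losses of single members are given beside them in the results.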
